A study of Mus musculus with 20 samples.

Results

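The 10 let-7 passenger strands described here are the miRNA rows whose name begins with mmu-let-7 and ends in -3p, 10 of 1481 rows measured by small RNA sequencing in mouse cortical neurons. They were chosen by name from the rows listed in the deposited tables, so no level or fold change entered the rule. The family itself was proposed with earlier results of these data known, among them the fall of let-7c-1-3p after oxygen-glucose deprivation, so the tests of the deprivation effect below describe the members and are no independent support for that choice. The neurons came from embryonic day 15 cortices, grew for 7 days in culture, and carried the strain label C57BL/6N-Cdr1asem1Nikr in every group, those of wild-type genotype included. The knockout neurons lacked ciRS-7 (Cdr1as), a circular RNA of neurons known as a binder of miR-7. For 12 h the cultures were then held either in normoxia (5% CO2, with 25 mM glucose and 0.2 mM pyruvate in the medium) or under oxygen-glucose deprivation, called OGD (1% O2 with 5% CO2, in the same basal medium without that glucose and pyruvate), which models the loss of blood supply in a stroke. Oxygen and glucose were withdrawn together, so their effects cannot be told apart. Each of the 4 groups (wild-type normoxia, wild-type OGD, knockout normoxia, knockout OGD) had 5 biological replicates, 20 libraries in all. The labels name no separate animals or litters for the replicates, so the p-values measure the spread between these cultures.

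A miRNA gene is transcribed into a long primary transcript, from which Drosha and then Dicer cut a short hairpin and a duplex of its 5p and 3p arms. One arm, the guide, is usually kept in an Argonaute protein and directs it to messenger RNAs through its seed (bases 2 to 8), and the other arm, the passenger, is mostly degraded. In let-7 hairpins the guide is the 5p arm. The let-7 guides are among the best-known miRNAs of differentiated cells, are abundant in neurons, and their maturation is blocked by LIN28 in immature cells. Several hairpins can give 1 and the same guide, and there the passenger strand is what tells the hairpins apart: let-7c-5p can come from the hairpins let-7c-1 and let-7c-2, and let-7f-5p from let-7f-1 and let-7f-2.

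All 10 members had a mature sequence in RefSeq (build GRCm38.p6). The sequences are shown because they decide which rows can be told apart by their reads. They are written 5′ to 3′ with the seed in capitals, grouped by seed.
mmu-let-7a-1-3p: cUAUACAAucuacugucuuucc
mmu-let-7c-2-3p: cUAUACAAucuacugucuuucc
mmu-let-7b-3p: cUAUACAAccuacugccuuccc
mmu-let-7f-1-3p: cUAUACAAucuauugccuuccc
mmu-let-7f-2-3p: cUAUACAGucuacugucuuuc
mmu-let-7d-3p: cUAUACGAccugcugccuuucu
mmu-let-7e-3p: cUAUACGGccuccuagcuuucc
mmu-let-7c-1-3p: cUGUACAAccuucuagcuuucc
mmu-let-7i-3p: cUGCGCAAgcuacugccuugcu
mmu-let-7g-3p: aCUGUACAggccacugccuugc
The 10 rows hold 9 distinct sequences and 7 distinct seeds. The seed UAUACAA is shared by 4 of the rows (let-7a-1-3p, let-7b-3p, let-7c-2-3p and let-7f-1-3p) and, among the other rows of the tables with a sequence, also by miR-98-3p, the passenger of a let-7 relative. The remaining 6 members each have a seed of their own.

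The rows let-7a-1-3p and let-7c-2-3p have the same sequence and the same reads in each of the 20 libraries. Their reads cannot be divided between the 2 hairpins, and the pair is 1 measurement written in 2 rows. Counting from 1 at the 5′ end of let-7a-1-3p, let-7f-2-3p differs from it by A8G over 21 compared bases and is 1 base shorter. Set against let-7c-1-3p in the same way, let-7c-2-3p differs at 5 positions (G3A, C9U, U12A, A15G and G16U). Set against let-7f-1-3p, let-7f-2-3p differs at 4 positions (A8G, U13C, C16U and C20U). How the submitters assigned reads with mismatches is not given in the sources used here.

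Positions of the hairpins are on GRCm38, the build mm10 of the submitters' processing notes. On chromosome 13, let-7a-1 (48538179 to 48538272), let-7f-1 (48537829 to 48537917) and let-7d (48536012 to 48536114) lie on the minus strand in exons of the long noncoding RNA 6720427I07Rik. A gap of 262 bases separates let-7a-1 from let-7f-1, and one of 1715 bases separates let-7f-1 from let-7d. On the plus strand of chromosome 15, let-7c-2 (85706603 to 85706697) and let-7b (85707319 to 85707403) lie 622 bases apart in an exon of the noncoding gene Lncppara. The hairpin of let-7c-1 lies on the plus strand of chromosome 16 (77599657 to 77599750), in an intron of Mir99ahg and 657 bases from Mir99a. The hairpin of let-7f-2 lies on the plus strand of chromosome X (151912346 to 151912428), in an intron of Huwe1, a ubiquitin ligase gene, and 786 bases from Mir98. The hairpin of let-7e lies on chromosome 17 (17830352 to 17830444, plus strand) in an intron of Spaca6, 368 bases from Mir125a. The hairpins of let-7g (chromosome 9, 106178840 to 106178927, plus strand) and let-7i (chromosome 10, 122985640 to 122985724, minus strand) lie in an intron of Wdr82 and an exon of the transcribed pseudogene D630033A02Rik.

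The 2 hairpins whose passengers moved most are shown whole, with the guide (first run) and the passenger (second run) in capitals.
Mirlet7c-1: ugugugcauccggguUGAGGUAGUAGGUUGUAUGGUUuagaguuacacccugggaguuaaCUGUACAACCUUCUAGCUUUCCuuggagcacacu
Mirlet7f-2: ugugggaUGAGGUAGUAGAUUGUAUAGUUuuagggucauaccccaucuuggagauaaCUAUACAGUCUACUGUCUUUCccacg

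Read totals ran from 1160582 to 12477032 per library, a 10.8-fold range. Normoxic libraries held 2492065 to 9117862 reads (wild type) and 5884616 to 12477032 (knockout), and OGD libraries 1160582 to 4374002 and 1811589 to 3119212, so the latter were shallower on average. Levels are given as CPM, the reads of a row divided by the effective total that the submitters used for its library, which was 0.923 to 1.08 times the library's reads. A count of 3 reads is worth between 0.249 CPM, where depth was highest, and 2.55 CPM, where it was lowest. All 10 members had a read in every library. The rarest, let-7g-3p, had 3 reads or fewer in 2 libraries, and no other member had fewer than 10 reads in any library. Neuronal miR-124-3p was at 2739 to 4107 CPM in normoxic and 4900 to 6484 CPM in OGD libraries, and miR-128-3p, also known for neurons, at 43500 to 81260 and 34840 to 48140 CPM. The range after OGD was higher for miR-124-3p and lower for miR-128-3p, whose groups overlapped in knockout but not in wild type. The third neuronal marker listed, miR-9-5p, held 229700 to 300900 CPM in normoxic and 236500 to 307800 CPM in OGD libraries, and its groups overlapped. Meanwhile miR-142a-3p of blood cells and microglia reached at most 3.59 CPM and miR-223-3p of myeloid cells, at 0 in 12 libraries, at most 0.695 CPM. Likewise low were miR-142a-5p (0 to 1.47 CPM, at 0 in 5 libraries) and miR-451a of red blood cells (0.375 to 3.48 CPM). Endothelial miR-126a-3p (251 to 378 CPM), miR-204-5p (109 to 200 CPM, a miRNA of choroid plexus) and miR-143-3p of mural cells (29.6 to 61.1 CPM) were present in all libraries. The other mural marker, miR-145a-5p, was at 0 to 3.40 CPM, with 0 in 1 library. The part of cell composition in the results was not tested. The first principal component over 423 features (83% of the variance) separated OGD from normoxia, with 1 library apart: wild-type normoxia replicate 5 scored -0.88, against -14.46 to -13.09 for the other libraries of its group.

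In normoxic wild-type neurons the mean levels of the passengers ran from 1.97 to 622 CPM, beside guides of 1592 CPM and more. The summed level of the 9 distinct passenger rows was 1270 ± 182 CPM (SD, n = 5), which was 0.685% ± 0.073 of the summed guides (185010 CPM). One row, let-7d-3p, held 48.9% ± 2.4 of that sum at 622 ± 105 CPM, and the shared row of let-7a-1-3p and let-7c-2-3p held 36.2% ± 3.1 at 460 ± 73.9 CPM. The next levels were 71.2 ± 16.5 CPM for let-7c-1-3p, 43.5 ± 8.09 CPM for let-7b-3p and 28.2 ± 5.87 CPM for let-7e-3p. Below them lay let-7f-1-3p at 19.6 ± 2.13 CPM, let-7i-3p at 15.6 ± 2.05 CPM, let-7f-2-3p at 7.52 ± 7.86 CPM and let-7g-3p at 1.97 ± 0.471 CPM. In this order the libraries of let-7b-3p and let-7e-3p, of let-7e-3p and let-7f-1-3p, of let-7f-1-3p and let-7i-3p, and of let-7i-3p and let-7f-2-3p overlapped, and the other neighbours did not. Knockout neurons had the same order in normoxia, with 651 ± 100 CPM for let-7d-3p at the top and 2.39 ± 0.593 CPM for let-7g-3p at the bottom.

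The share of reads that fell on the passenger arm differed widely between hairpins. The passenger let-7d-3p made up 14.1% ± 1.2 of the reads of both let-7d arms in normoxic wild-type neurons (SD, n = 5). The share was 1.73% ± 0.28 for let-7e-3p, 0.75% ± 0.12 for let-7b-3p, 0.0478% ± 0.007 for let-7f-1-3p, 0.0291% ± 0.0032 for let-7i-3p and 0.00457% ± 0.00076 for let-7g-3p. The guides of let-7g and let-7i were abundant at 42504 and 53430 CPM, so their rare passengers came with high guide levels. For let-7a, let-7c and let-7f such a share is less defined, since the guide row collects reads of several hairpins.

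**Figure D1:**
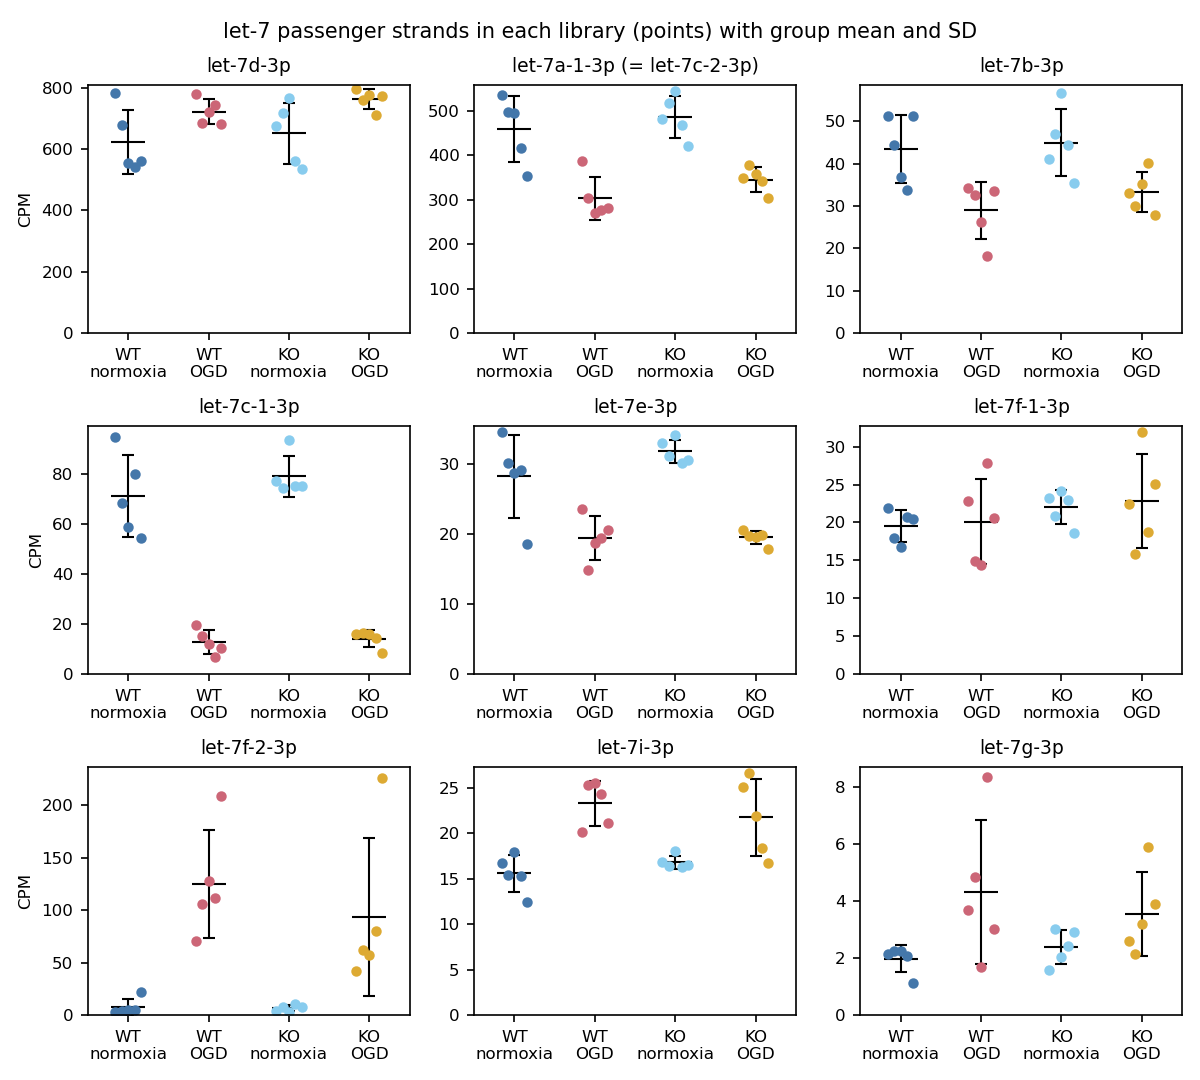
Level of each distinct let-7 passenger row (CPM, linear axes starting at 0) in wild-type (WT) and knockout (KO) neurons in normoxia and after OGD. Points are the 5 libraries of a group, the black line is their mean and the bar is the SD; let-7c-1-3p drops and let-7f-2-3p climbs after OGD in both genotypes, while let-7f-1-3p does neither.

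The first comparison asked what 12 h of OGD did to the passengers in wild-type neurons. In limma on log2(CPM + 0.5), 6 of the 10 member rows had a Benjamini-Hochberg adjusted p under 0.05, against 23.1% of all 1478 features. The rows let-7f-2-3p and let-7i-3p were higher (18.7% of all features were called higher), and let-7a-1-3p, let-7b-3p, let-7c-1-3p and let-7c-2-3p were lower (4.4% of all features), where let-7a-1-3p and let-7c-2-3p are 1 measurement. The median log2 difference over the 10 rows was -0.25, against 0.32 over all features. In knockout neurons 6 of the 10 rows were called, against 24.5% of all 1479 features. There let-7f-2-3p was higher (18.8% of all features), and let-7a-1-3p, let-7b-3p, let-7c-1-3p, let-7c-2-3p and let-7e-3p were lower (5.75%). The median was -0.20, against 0.24 over all features. The groups did not overlap for 3 members in wild type (16% of all features) and for 5 in knockout (19.1%). Centring each library on its median shifted all changes by 0.56 in wild type and 0.51 in knockout on the log2 scale, and members whose direction depends on that are named below.

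The passenger with the largest fall was let-7c-1-3p, from the hairpin in Mir99ahg. Its levels in the 5 wild-type normoxic libraries were 94.9, 68.2, 58.6, 79.7 and 54.4 CPM, and in the 5 wild-type OGD libraries 19.7, 15.3, 11.9, 6.95 and 10.5 CPM. Every OGD library lay below every normoxic one. In RNA from whole cultures, fewer cells of a type and less of a strand per cell cannot be told apart. The mean went from 71.2 ± 16.5 to 12.9 ± 4.83 CPM (SD, n = 5), a log2 difference of -2.47 (SE 0.23, limma adjusted p 3.9e-07), or 5.55-fold lower. The knockout normoxic libraries held 76.9, 74.3, 93.6, 75.2 and 75.2 CPM, and the knockout OGD libraries 15.9, 16.3, 16, 14.2 and 8.36 CPM. Again the groups did not overlap, and the log2 difference was -2.47 (SE 0.17, limma adjusted p 3.5e-08). Behind the OGD levels stood 10 to 80 reads per library in wild type and 15 to 49 in knockout. The fall was there when every library was thinned to the depth of the shallowest (-2.49 in wild type, limma adjusted p 4.8e-04, and -2.20 in knockout, adjusted p 1.7e-04) and with centred libraries (-3.03 and -2.98).

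The row assigned to the other hairpin of the same guide fell less. Its reads are shared with let-7a-1-3p, so the change of the let-7c-2 strand alone cannot be told. The shared row of let-7c-2-3p and let-7a-1-3p held 537, 499, 495, 416 and 353 CPM in wild-type normoxia and 388, 303, 270, 277 and 282 CPM after OGD. Replicate 1 after OGD lay above the lowest normoxic library, so the groups overlapped. The log2 difference was -0.59 (SE 0.13, limma adjusted p 0.0027). In knockout neurons the levels were 483, 518, 545, 469 and 421 CPM in normoxia and 348, 378, 357, 342 and 303 CPM after OGD, without overlap (-0.49, SE 0.09, limma adjusted p 6.1e-04). The ratio of let-7c-1-3p to let-7c-2-3p was -2.70 ± 0.28 on the log2 scale in wild-type normoxia and -4.58 ± 0.40 after OGD (SD, n = 5), a change of -1.88. The ratios ran from -3.07 to -2.38 in the normoxic libraries and from -5.22 to -4.27 in the OGD libraries, without overlap. In knockout the change was -1.98, from -2.79 to -2.48 in normoxia to between -5.10 and -4.41 after OGD, again without overlap. The hairpin pairs were picked after their levels had been seen, so these ratios are a description with no test. The guide let-7c-5p itself was at 26029 ± 815 CPM in wild-type normoxia and 25442 ± 1324 CPM after OGD (log2 difference -0.03, SE 0.08, limma adjusted p 0.78).

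The passenger let-7f-2-3p, from the hairpin in Huwe1, rose most. Its wild-type normoxic libraries held 3.09, 3.62, 4.46, 4.91 and 21.5 CPM, and the wild-type OGD libraries 70.5, 106, 127, 112 and 209 CPM. In wild-type normoxia the level rose as library depth fell, an order that knockout normoxia did not show. The normoxic library at 21.5 CPM is replicate 5, the shallowest of its group (2492065 reads) and the one apart on the first principal component. It still lay below every OGD library. The mean went from 7.52 ± 7.86 to 125 ± 51.5 CPM (SD, n = 5), a log2 difference of 4.26 (SE 0.38, limma adjusted p 2.8e-07), or 19.2-fold. Without that library the difference was 4.72. The knockout libraries held 4.24, 7.63, 2.9, 10.1 and 7.79 CPM in normoxia and 41.6, 61.8, 57.4, 80.2 and 226 CPM after OGD. The highest of these, replicate 5, also had the highest score on the first principal component in its group (14.59, against 9.31 for the next). It held the fewest reads of that group as well (1811589). The knockout log2 difference was 3.58 (SE 0.38, limma adjusted p 2.4e-06), or 11.9-fold, and 3.19 without that library. With centred libraries the differences were 3.70 and 3.07. In the order of mean levels over the 9 distinct rows, let-7f-2-3p thus went from the eighth to the third place in both genotypes, and let-7c-1-3p from the third to the eighth.

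The sister hairpin showed no such rise. The passenger let-7f-1-3p held 21.9, 18, 16.7, 20.8 and 20.4 CPM in wild-type normoxia and 22.9, 14.9, 14.4, 27.8 and 20.6 CPM after OGD. The OGD libraries lay on both sides of the normoxic ones, and the log2 difference was 0.00 with a 95% interval from -0.41 to 0.42 (limma adjusted p 0.99). In knockout the difference was 0.02 (interval -0.35 to 0.38, limma adjusted p 0.96). This depended on the scaling, since with centred libraries let-7f-1-3p was lower by 0.56 in wild type (limma adjusted p 0.044) and by 0.49 in knockout (adjusted p 0.034). The ratio of let-7f-2-3p to let-7f-1-3p, which scaling a library leaves almost as it is, went from -1.70 ± 1.04 to 2.56 ± 0.73 on the log2 scale in wild type (SD, n = 5), a change of 4.26. In knockout the change was 3.56. The OGD libraries lay at 1.61 to 3.32 in wild type and 0.84 to 3.15 in knockout, above all normoxic libraries of their genotype (at most 0.08 and -1.15). The guide let-7f-5p was at 41140 ± 2219 CPM in wild-type normoxia and 41056 ± 2831 CPM after OGD. Even after its rise, let-7f-2-3p made up 0.309% ± 0.14 of the reads of itself and that guide.

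**Figure D2:**
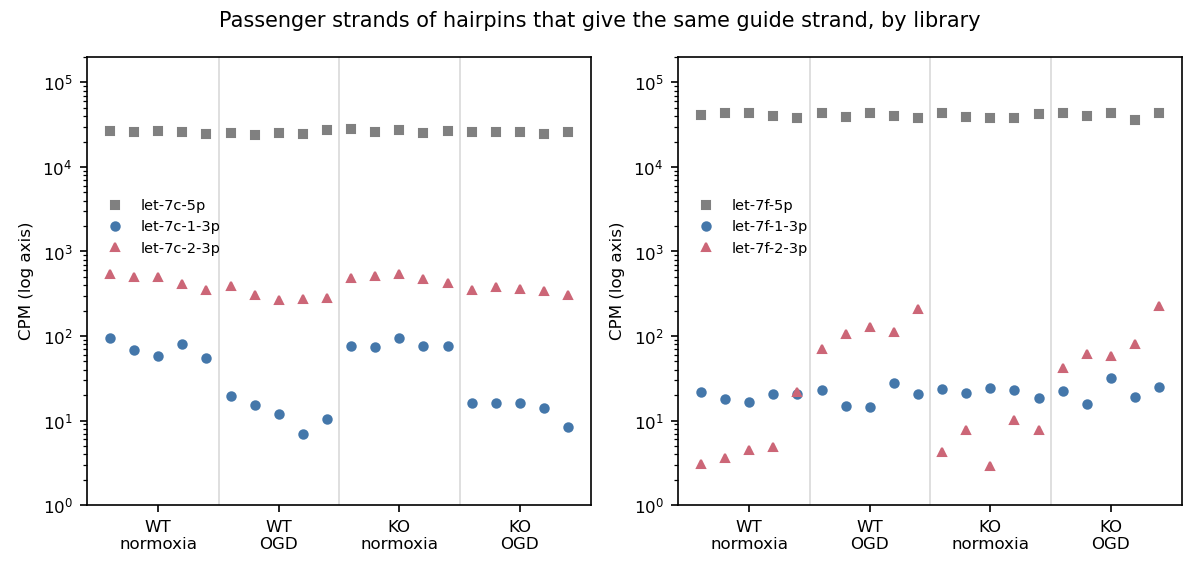
CPM on a log axis in each of the 20 libraries (replicates 1 to 5 from left to right within a group) for let-7c-5p with its passengers let-7c-1-3p and let-7c-2-3p (left) and let-7f-5p with let-7f-1-3p and let-7f-2-3p (right). Grey guide points stay level between the groups, the let-7c-1-3p row moves away from the let-7c-2-3p row after OGD, and let-7f-2-3p crosses above let-7f-1-3p. The let-7c-2-3p row holds the same reads as let-7a-1-3p, so it does not show the let-7c-2 hairpin alone.

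Smaller changes were seen in let-7b-3p, let-7e-3p and let-7i-3p. The passenger let-7b-3p, whose hairpin neighbours that of let-7c-2, went from 43.5 ± 8.09 to 28.9 ± 6.84 CPM in wild type (log2 difference -0.60, SE 0.19, limma adjusted p 0.032). Its knockout levels were 44.9 ± 7.89 CPM before and 33.3 ± 4.79 CPM after OGD (-0.42, SE 0.14, limma adjusted p 0.041). Its groups overlapped in both genotypes, and its call was lost in 7 of 19 alternatives in wild type and 9 of 19 in knockout, most of them fits that left out 1 library. For let-7e-3p the wild-type libraries held 34.5, 30.1, 28.7, 29.1 and 18.5 CPM in normoxia and 23.6, 14.9, 18.7, 19.5 and 20.6 CPM after OGD. The normoxic library at 18.5 CPM, replicate 5, lay among the OGD libraries, and the difference of -0.51 (SE 0.19, limma adjusted p 0.061) missed the threshold. It passed in 8 of 19 alternatives. Among them were the fit without that library (-0.65, adjusted p 0.0060), centred libraries (-1.07, adjusted p 2.4e-04) and quantile normalization (-1.07, adjusted p 0.0027). The deposited values, which are scores with extremes drawn in within each group and not log2 values, also passed (-0.57 in score units, adjusted p 6.9e-04). Thinned libraries gave -0.38 (adjusted p 0.39). In knockout let-7e-3p fell from 31.8 ± 1.69 to 19.5 ± 0.988 CPM without overlap (-0.69, SE 0.12, limma adjusted p 2.7e-04).

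The passenger let-7i-3p, of the most abundant guide in the family, held 16.8, 15.4, 18, 15.3 and 12.5 CPM in wild-type normoxia and 20.2, 25.3, 25.5, 24.3 and 21.1 CPM after OGD. These groups did not overlap (0.57, SE 0.17, limma adjusted p 0.021), but the difference was 0.01 with centred libraries (adjusted p 0.99) and -0.04 with quantile normalization. It also missed the threshold without wild-type normoxia replicate 2 (adjusted p 0.051). In knockout the difference was 0.34 (SE 0.15, adjusted p 0.11), and -0.17 with centred libraries, and it passed in 3 of 19 alternatives (filter on low values, deposited values and without knockout OGD replicate 5). The most abundant passenger, let-7d-3p, was at 622 ± 105 CPM in normoxia and 722 ± 41.5 CPM after OGD in wild type (0.23, SE 0.11, limma adjusted p 0.16) and at 651 ± 100 and 762 ± 31.8 CPM in knockout (0.24, SE 0.10, adjusted p 0.092). Neither passed the test, and with centred libraries the values were -0.33 and -0.27. Higher calls came on the deposited values in both genotypes (adjusted p 0.031 in each), without wild-type normoxia replicate 1 (0.31, adjusted p 0.036), without knockout normoxia replicate 3 (0.30, adjusted p 0.039) and with a replicate block in knockout (adjusted p 0.031). The rare let-7g-3p, with 2 to 18 reads in each wild-type library, had differences of 0.84 in wild type (SE 0.35, limma adjusted p 0.099) and 0.44 in knockout (SE 0.28, adjusted p 0.28). In wild type it passed the threshold in 4 of 18 alternatives: voom (0.96, adjusted p 0.028), the deposited values (0.69 in score units, adjusted p 0.034), thinned libraries (2.11, adjusted p 0.036) and the fit without wild-type OGD replicate 3 (1.08, adjusted p 0.031). Thinning was 1 random draw and left few reads of this row. With centred libraries the wild-type value was 0.28 (adjusted p 0.63) and the knockout value -0.07, and with thinned libraries the knockout value was 1.36 (adjusted p 0.13).

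With rises and falls among the members, the summed wild-type level of the 9 distinct rows was 1270 ± 182 CPM before and 1260 ± 64.2 CPM after OGD, and the knockout sums were 1342 ± 160 and 1316 ± 53.8 CPM in knockout (SD, n = 5; no test was run on the sums). Within the sum, the share of let-7d-3p was 48.9% ± 2.4 in normoxia and 57.3% ± 2.7 after OGD in wild type, and that of the shared let-7a-1-3p and let-7c-2-3p row 36.2% ± 3.1 and 24% ± 2.8.

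**Figure D3:**
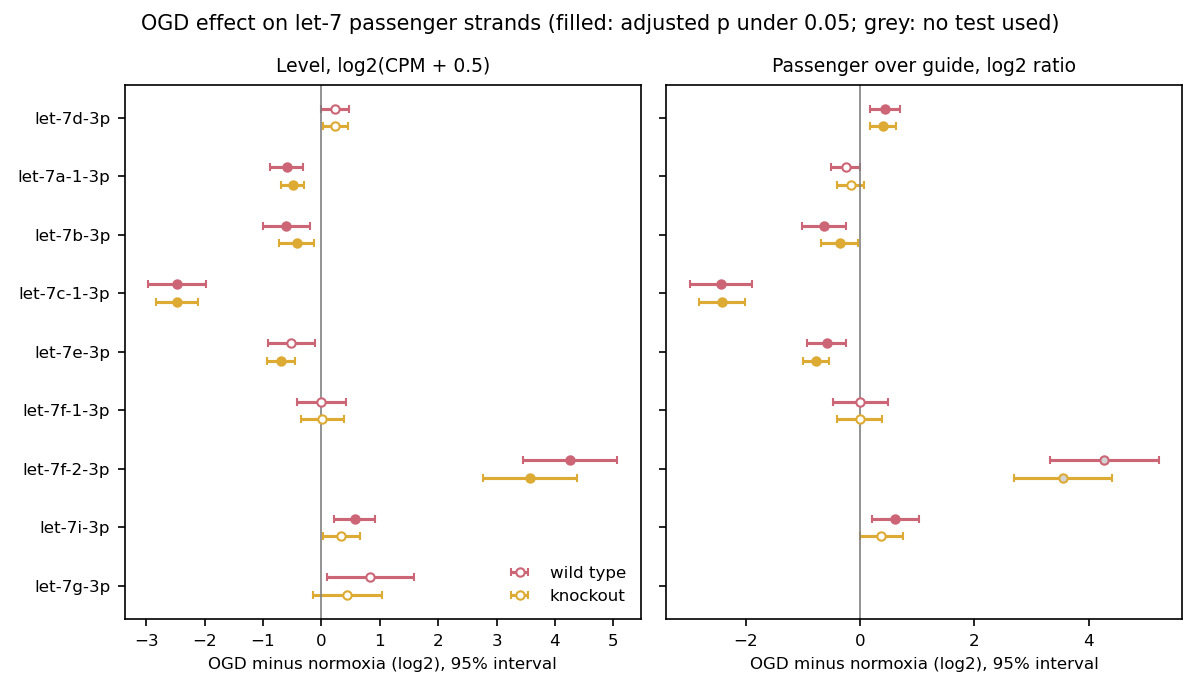
OGD minus normoxia in wild-type and knockout neurons for each distinct row, as the level (left) and as the passenger over its guide (right), in log2 units with 95% intervals; let-7c-2-3p, left out here, has the level of let-7a-1-3p and its own ratio in the text. Filled points passed an adjusted p of 0.05; let-7c-1-3p and let-7f-2-3p lie far from 0 on opposite sides in both panels. The ratio of let-7f-2-3p, in grey, is a description because this strand passed the level filter through its OGD libraries, and let-7g-3p has no ratio because it was under that filter.

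The ratio of passenger to guide within a library depends on how libraries are scaled only through the added 0.5 CPM. It was tested over all hairpins with both arms at a mean log2(CPM + 0.5) of at least 3. That filter leaves out let-7g-3p, and let-7f-2-3p passed it through its OGD libraries, where it is high, so its ratio is described on its own and it is not counted here. In wild type 6 of the other 8 members were called after OGD, against 65% of all 120 arm pairs, so a changed ratio was about as common among all hairpins. The rows let-7d-3p and let-7i-3p were higher (27.5% of all pairs), and let-7b-3p, let-7c-1-3p, let-7c-2-3p and let-7e-3p were lower (37.5%). In knockout 5 of these 8 were called, against 69.2% of 117 pairs, with let-7d-3p higher (28.2%) and let-7b-3p, let-7c-1-3p, let-7c-2-3p and let-7e-3p lower (41%). For let-7b-3p the knockout value of -0.36 (limma adjusted p 0.046) lost its call in 7 of 15 alternatives, 6 of them fits that left out 1 library (adjusted p 0.015 to 0.12 over the fits without 1 library). The median ratio change over all pairs was -0.12 in wild type and -0.17 in knockout. Without the filter, 3 members were called in wild type, against 17.1% of 525 pairs, and 4 in knockout, against 20.7% of 526, let-7f-2-3p among them in each. The wild-type ratios of let-7b-3p, let-7c-2-3p, let-7d-3p and let-7e-3p then missed the threshold (adjusted p 0.058, 0.056, 0.099 and 0.058), and in knockout those of let-7b-3p and let-7d-3p did (adjusted p 0.17 and 0.076).

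For let-7d-3p the ratio showed a change that its level did not. It rose by 0.43 in wild type (SE 0.12, limma adjusted p 0.0060) and by 0.40 in knockout (SE 0.10, adjusted p 0.0030), on the log2 scale. The share of let-7d-3p in the reads of both arms was 12.5% to 15.2% in wild-type normoxia and 17.2% to 20.5% after OGD, and 13.2% to 16.5% and 17.8% to 18.9% in knockout, so the groups did not overlap in either genotype. The guide let-7d-5p was at 3785 ± 483 CPM in normoxia and 3269 ± 314 CPM after OGD in wild type, and neither arm passed the level test there (limma adjusted p 0.16 for let-7d-3p and 0.17 for let-7d-5p). With centred libraries both arms were lower in wild type, let-7d-3p by 0.33 (adjusted p 0.060) and let-7d-5p by 0.77 (adjusted p 7.1e-05). For let-7a-1-3p the ratio to let-7a-5p differed by -0.25 in wild type (limma adjusted p 0.081, and 0.033 without wild-type OGD replicate 1) and -0.17 in knockout (adjusted p 0.19), and let-7a-5p was itself lower. Against let-7c-5p the same reads, as let-7c-2-3p, gave -0.56 (adjusted p 0.0047) and -0.43 (adjusted p 0.0034). The ratios of let-7c-1-3p (-2.44 and -2.41) and let-7f-2-3p (4.27 and 3.55) were close to their level changes. The ratio of let-7e-3p fell by 0.58 in wild type (adjusted p 0.0052) and by 0.77 in knockout (adjusted p 1.7e-05). With thinned libraries the wild-type value was -0.44 and missed the threshold (adjusted p 0.14). That of let-7i-3p was 0.62 higher in wild type (adjusted p 0.010), and in knockout its difference of 0.37 missed the threshold (adjusted p 0.073). It passed with thinned libraries (0.51, adjusted p 0.042) and without knockout OGD replicate 5 (0.48, adjusted p 0.0046).

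Among the 9 guides of the family (miR-98-5p included), 1 was called lower after OGD in each genotype (4.4% of all features in wild type and 5.75% in knockout) and none higher (18.7% and 18.8%). That guide was let-7a-5p, at 10783 ± 1021 CPM in normoxia and 8472 ± 548 CPM after OGD in wild type (log2 difference -0.34, SE 0.09, limma adjusted p 0.0090), with -0.33 in knockout. The guide differences spanned -0.34 to 0.07 in wild type, with a median of -0.03, against -2.47 to 4.26 for the passengers. The guide counts depended on the scaling. With each library centred on its median, an alternative added for the guides after the data had been seen, all 9 were called lower in both genotypes, with medians of -0.59 in wild type and -0.56 in knockout, where 17.9% and 21.9% of all features were lower. With quantile normalization let-7f-5p (0.16) and let-7i-5p (0.22) were called higher and let-7d-5p (-0.31, adjusted p 0.023) lower in wild type, while let-7a-5p was not called (-0.19 in both genotypes, adjusted p 0.10 and 0.068). The wild-type medians were then -0.04 for the guides and -0.03 for all features, and 0 guides were called in knockout.

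Several let-7 hairpins are cut from transcripts that also carry miR-99, miR-100, miR-125 or miR-98, and 13 strands of these were listed. In wild type 2 of the 13 were called higher (18.7% of all features), miR-98-3p (0.57, SE 0.20, limma adjusted p 0.047) and miR-125b-2-3p (0.30, adjusted p 0.037), and 1 lower (4.4%), miR-125b-1-3p (-0.98, SE 0.13, adjusted p 1.6e-05). In knockout miR-98-3p was called higher (0.64, adjusted p 0.0051) and miR-125b-1-3p lower (-1.04, adjusted p 2.5e-06). The higher calls depended on the scaling. With centred libraries miR-98-3p was at 0.0099 in wild type and 0.13 in knockout (adjusted p 0.98 and 0.58), and miR-125b-2-3p at -0.26 (adjusted p 0.069) and -0.32 (adjusted p 0.015), with 0 of the 13 called higher and 9 and 10 called lower. With quantile normalization 0 were called higher, miR-98-3p was at -0.047 in wild type and 0.14 in knockout, and 3 and 2 were called lower. In contrast miR-125b-1-3p was called lower under both scalings in both genotypes (-1.54 and -1.17 in wild type, -1.55 and -1.11 in knockout). The passenger miR-98-3p is cut from the neighbour of let-7f-2 in Huwe1. It went from 15.1 ± 1.06 to 23.4 ± 6.71 CPM in wild type, a far smaller change than that of let-7f-2-3p 786 bases away. On chromosome 13, where 3 hairpins lie within an exon sequence of 1 noncoding RNA, let-7f-1-3p and let-7d-3p did not pass the level test in either genotype, while the let-7a-1-3p row, whose reads are shared with let-7c-2-3p of chromosome 15, fell in both.

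Loss of ciRS-7 was asked about next, in normoxia and after OGD. None of the 10 members was called in normoxia, and 0% of all 1481 features were, with 47 features at an unadjusted p under 0.05. The knockout minus wild-type differences of the members ran from 0.05 (let-7b-3p) to 0.23 (let-7g-3p) on the log2 scale, all with a limma adjusted p of 0.98 or more. The interval of let-7c-1-3p ran from -0.13 to 0.48 and that of let-7d-3p from -0.21 to 0.34. By the arm ratio, 0 of 8 members were called in normoxia (1.71% of 117 pairs). After OGD 0 of 10 members and 0% of 1481 features were called by level, with 108 features at an unadjusted p under 0.05, and 0 of 9 members and 0% of 125 pairs by ratio.

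The member with the largest genotype difference was let-7f-2-3p after OGD, lower in knockout by 0.61 on the log2 scale (SE 0.28, interval -1.17 to -0.04, unadjusted limma p 0.035, adjusted p 0.62). The value moved with single libraries. Knockout OGD replicate 5 held 226 CPM while the other 4 held 41.6 to 80.2 CPM, against 70.5 to 209 CPM in wild type, and without it the difference was larger, -0.99 with an adjusted p of 0.0046. It was smaller without knockout OGD replicate 1 (-0.39, adjusted p 0.89) or wild-type OGD replicate 5 (-0.40, adjusted p 0.83). The other members differed by -0.17 (let-7g-3p) to 0.22 (let-7b-3p) after OGD. The test of the OGD effect between the genotypes (an interaction term over all 20 libraries) called 0 of 10 members and 0% of 1481 features, and by ratio 0 of 8 members and 0% of 119 pairs, let-7f-2-3p again not counted because it passed the filter through its OGD libraries. For let-7c-1-3p it was 0.00 with an interval from -0.62 to 0.62, and for let-7f-2-3p -0.69 with an interval from -1.91 to 0.54 (limma adjusted p 0.99). Differences between genotypes within those intervals were not detectable with these libraries.

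**Figure D4:**
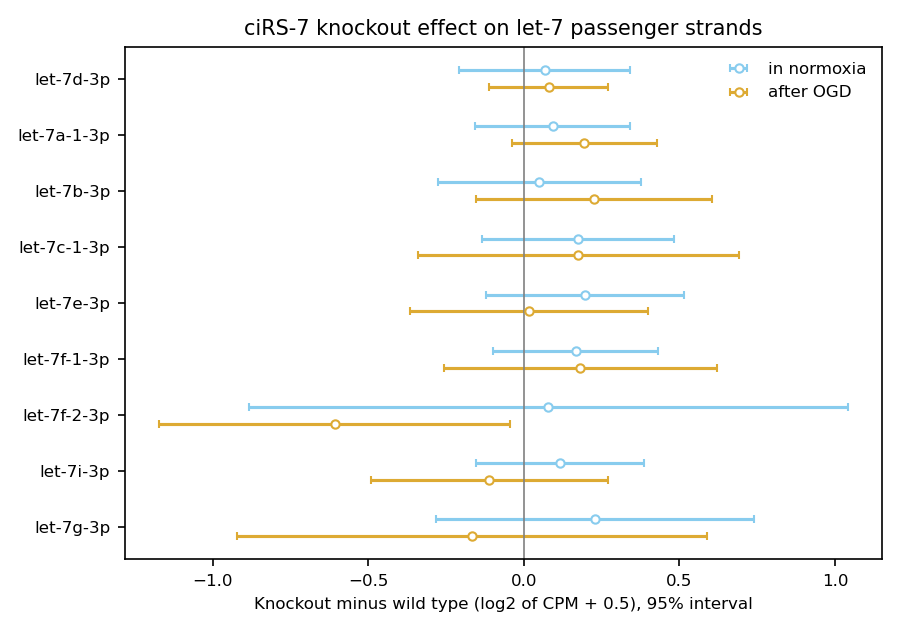
Knockout minus wild type for each distinct let-7 passenger row, in normoxia and after OGD, in log2 units of CPM + 0.5 with 95% intervals. No point passed the adjusted threshold, and the interval of let-7f-2-3p after OGD (-1.17 to -0.04) is the only one that does not reach 0.

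The rows most like 3 members across the 20 libraries were listed as a description, over 403 features, and these libraries share the OGD split and its gap in depth. For let-7c-1-3p they were miR-410-5p (Pearson's r 0.957), miR-125b-1-3p (0.954) and miR-124-5p (0.942), all lower on average after OGD, miR-410-5p from 26.9 to 2.43 CPM on average in wild type. With each group's mean subtracted, the nearest row was miR-181a-1-3p (0.622). For let-7d-3p they were miR-26a-5p (0.869), miR-672-5p (0.828) and miR-9-3p (0.822), and within groups miR-140-5p (0.820). For let-7f-2-3p, added after its values had been seen, they were miR-3535 (0.983), miR-1187 (0.982) and miR-466i-5p (0.982), and within groups miR-2137 (0.922). The level of miR-3535 in wild-type normoxia was 89.5 to 109 CPM in 4 libraries and 602 CPM in replicate 5, the same library in which let-7f-2-3p was high.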

How the data were processed

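The authors deposited 6 tables, each with the 10 libraries of 2 groups, as a score per miRNA. The build mm10 is per the submitters' processing notes, and the aligner, the miRNA reference and the counting of shared reads are not given in the sources used here. From the values, each score is a whole read number times a library factor, raised to 1 power per table (0.106 to 0.118), with the extremes of each group of 5 drawn in at the quantiles 0.16 and 0.84. Undoing this gave whole reads for 100% of values (distance under 0.05), with 0 differences in 88520 comparisons between tables. CPM used the authors' relative library factors, set here to the mean log2 read total (0.923 to 1.08 times the reads). Reads carry no molecular identifiers, so read floors cover counting error only.

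Levels were tested with limma 3.58.1 (R 4.3.3, trend) on log2(CPM + 0.5) over all features, which understates changes of rare rows, and arm ratios likewise. Two-sided p-values were adjusted after Benjamini-Hochberg over all features (threshold 0.05). A comparison of 2 groups was fitted on their 10 libraries, the interaction on all 20. Scripts were tested on simulated data. Alternatives covered scaling, pseudocount, filters, voom, the deposited score, thinning, a replicate block and leaving out each library. Differences on the deposited score are in its own units and not log2, and its drawn-in extremes narrow the spread within groups. All 10 members are named by rule. Members and lists were chosen with earlier results of these data known. Positions are from GENCODE and sequences from RefSeq. No 2 replicates matched within sampling noise (chi-square per degree of freedom at least 19.4).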

Additional observations from a re-analysis of the deposited data

Results flagged for a closer look

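In 6 of 36 groups of 5 libraries tested, the highest or lowest library stood apart from the others, with a gap to its neighbour of more than 0.71 of the whole range of the group. Chance flags about 1 in 20 groups. Wild-type normoxia replicate 5 was the highest for let-7f-2-3p (gap ratio 0.901) and the lowest for let-7g-3p (0.846), where it had 3 reads. Knockout OGD replicate 5 was the highest for let-7f-2-3p (0.79) and the lowest for let-7c-1-3p (0.738). Both libraries had the highest score on the first principal component in their group and the fewest reads (2492065 and 1811589). The others were knockout normoxia replicate 3, the highest for let-7c-1-3p (0.863), and wild-type OGD replicate 1, the highest for the shared row of let-7a-1-3p and let-7c-2-3p (0.717). What set these libraries apart was not tested.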

How the results depend on the processing

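Over 60 results and 939 alternative values, 839 were labelled the same, 38 weaker and 27 stronger, and 35 changed sign. For the value of a row or ratio, the same means its direction and side of the threshold were kept. For a count of called members it means a count near the main one, so 4 in place of 6 was the same. A sign change was labelled so whether or not the call changed. The level changes of let-7c-1-3p and let-7f-2-3p after OGD kept direction and call in all 19 alternatives in each genotype. Leaving aside the deposited values, which are on another scale, let-7c-1-3p lay between -3.08 and -2.28 in wild type and between -2.99 and -2.20 in knockout. With centred libraries, sign changes gave -0.33 (wild type) and -0.27 (knockout) for let-7d-3p, -0.56 and -0.49 for let-7f-1-3p, and in knockout -0.068 for let-7g-3p and -0.17 for let-7i-3p, and, outside the members, -0.26 and -0.32 for miR-125b-2-3p. With quantile normalization they gave -0.62 and -0.51 for let-7f-1-3p, -0.042 and -0.13 for let-7i-3p, and -0.13 for let-7g-3p in knockout, and -0.047 for miR-98-3p in wild type. Other guides and neighbour strands, not counted above, changed sign too. With centred libraries let-7b-5p went from 0.028 to -0.53 in wild type and let-7f-5p from 0.024 to -0.49 in knockout. On the deposited values let-7f-1-3p was at -0.029 and -0.0089, in score units. Its differences, near 0, ran from -0.12 to 0.11 (wild type) and -0.11 to 0.13 (knockout) when single libraries were left out, and its arm ratios from -0.13 to 0.14 and from -0.12 to 0.10, with 0.0034 in knockout after thinning.

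After OGD, 0 members were called between genotypes in the main fit. On the deposited values, whose extremes are drawn in within each group, let-7a-1-3p and let-7c-2-3p were called (0.34 in score units, limma adjusted p 0.023), 1 measurement in 2 rows. When single libraries were left out, 0 to 1 members were called, the 1 being let-7f-2-3p without knockout OGD replicate 5. By arm ratio in wild type, 3 members were called without the level filter, where 525 pairs were tested in place of 120 and 90 were called in place of 78. The count of members called after OGD ran from 4 (without wild-type normoxia replicate 2, where 262 of 1478 features were called against 341) to 9 (deposited values, 477 features) in wild type. In knockout it ran from 5 (233 of 1479 features with thinned libraries, against 363) to 8 (deposited values, 476 features).

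Replicate numbers are shared between groups, and same-numbered libraries deviated together in part. Their correlations over 423 features ran from -0.17 to 0.66 for OGD in wild type and from -0.21 to 0.49 in knockout, and 4 and 3 of 5 numbers correlated best with their own. Whether the numbers pair cultures cannot be told from this, and the main fits did not pair them. With a replicate block, 7 members were called after OGD in each genotype, adding let-7e-3p in wild type (limma adjusted p 0.033) and let-7d-3p in knockout (adjusted p 0.031), and no other call of a member changed; over all features it called 389 against 341 and 403 against 363.

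Depth limited let-7g-3p most, which had 2 reads in 1 OGD library.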
